A study of Mus musculus with 6 samples.

Results

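After the third round of eribulin, few PB3 cells lay in the cluster that held most cells after the second round, and the share in that cluster was lower within each lineage large enough to compare. The comparison covers every cell that the deposited table assigns to ERI3 (3076 cells) or to ERI2 (1257 cells), 4333 of the 51785 cells of the series. PB3 is a mouse mammary tumour cell line whose cells carried lentiviral lineage barcodes. ERI3 cells had 3 rounds of 500 nM eribulin and ERI2 cells had 2, each round being 72 h of drug and 48 h of recovery. Both conditions, together with 1 round of the drug (ERI1, 1865 cells), were labelled with hashtag oligos and captured as 1 library in the second of 3 runs. The series also holds untreated cells, cells after 4 rounds and cells after paclitaxel, which are used below only where a level is set beside ERI3 and ERI2. ERI3 and ERI2 share the cell line, dose, capture and sequencing, and each is 1 culture. There is no untreated condition in their library. No replicate culture exists, so no test was possible and no p-value is given. The 95% intervals in parentheses cover counting error alone and say nothing of how cultures vary.

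Eribulin binds the ends of microtubules and stops their growth, so dividing cells are held in mitosis and often die. A lineage barcode is a synthetic sequence that is inserted in the genome and passed to all daughter cells, so cells that carry the same barcode descend from 1 infected cell or a few. Pseudotime is a position along a path fitted through expression profiles, here by the authors on all samples, with untreated cells as its root. A higher value means a profile further from the untreated cells along that path, on an arbitrary scale. Clusters and pseudotime were computed from the same expression profiles and are not independent measures. The clusters keep the authors' numbers, since no gene expression matrix was analysed and no marker could be read.

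The 12 barcodes on which the lineage results rest are printed here because they are the identities of the lineages followed between the rounds. All 185 lineage barcodes in the authors' list for the second run have 48 bases, made of a first part of 14 bases, a spacer of 4 bases and a second part of 30 bases. Capitals mark the first and second parts, which vary, and the spacer is in lower case.
bc14-76-bc30-49517: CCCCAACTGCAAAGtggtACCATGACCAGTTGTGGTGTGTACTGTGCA
bc14-6-bc30-93034: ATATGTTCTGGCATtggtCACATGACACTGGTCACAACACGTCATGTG
bc14-55-bc30-23349: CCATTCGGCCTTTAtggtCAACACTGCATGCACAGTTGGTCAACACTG
bc14-95-bc30-33662: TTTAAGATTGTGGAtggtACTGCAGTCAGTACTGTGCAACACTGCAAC
bc14-39-bc30-41529: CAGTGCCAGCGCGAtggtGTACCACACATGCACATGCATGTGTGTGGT
bc14-89-bc30-6288: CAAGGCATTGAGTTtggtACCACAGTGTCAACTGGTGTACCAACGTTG
bc14-55-bc30-98358: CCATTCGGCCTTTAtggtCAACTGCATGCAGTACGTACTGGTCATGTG
bc14-55-bc30-37135: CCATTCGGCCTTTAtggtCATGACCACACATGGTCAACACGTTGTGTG
bc14-22-bc30-18173: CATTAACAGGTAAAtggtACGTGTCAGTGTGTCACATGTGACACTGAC
bc14-74-bc30-34057: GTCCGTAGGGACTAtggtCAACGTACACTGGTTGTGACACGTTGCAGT
bc14-55-bc30-99383: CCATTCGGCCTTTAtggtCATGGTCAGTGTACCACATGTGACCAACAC
bc14-1-bc30-96229: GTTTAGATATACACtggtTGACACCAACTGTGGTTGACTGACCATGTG

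Over the 66 pairs of these barcodes, between 16 and 42 of the 48 positions differed. The 4 barcodes whose names begin with bc14-55 have the same first part, and the second parts differed in at least 10 positions in every one of the 66 pairs. The hashtags that separate the conditions have 8 bases and differ in 6 of them.
hashtag of ERI3: tgagacct
hashtag of ERI2: ccacaatg

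The conditions differed in depth and in barcode detection, which bear on the comparisons that follow. The median was 11267 UMIs (counted RNA molecules) per ERI3 cell and 17285 per ERI2 cell, a ratio of 0.652 (0.617 to 0.681). The median number of genes was 2967 in ERI3 and 3922 in ERI2. Hashtag counts went the other way, with a median of 669 in ERI3 cells against 575 in ERI2 cells, a ratio of 1.16 (1.15 to 1.18). Lower RNA depth in ERI3 was therefore not matched by lower hashtag depth. Both conditions were sequenced as 1 library. Fewer molecules per cell and a less complete capture of each cell's molecules cannot be told apart here. In ERI3, 23 cells (0.748%) and in ERI2, 33 cells (2.63%) lay outside the filter the authors state (at least 200 genes and at most 50% of UMIs in mitochondrial genes), and they were kept. No cell barcode of the capture was shared between ERI3 and ERI2. Of their 4333 cells, 13 shared a cell barcode with the paclitaxel library, 9 with the untreated cells and 6 with the cells after 4 rounds.

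Cluster 7, the main cluster of ERI2, was nearly empty in ERI3. It held 102 of 3076 ERI3 cells, or 3.32% (2.71 to 4.01), and 1103 of 1257 ERI2 cells, or 87.7% (85.8 to 89.5), a difference of -84.4 percentage points (-86.2 to -82.4). Most ERI3 cells were in cluster 2, with 55.1% of ERI3 cells and 2.94% of ERI2 cells, a difference of 52.1 points (50.1 to 54.1). Cluster 8 followed with 20.7% of ERI3 cells and 0.318% of ERI2 cells, a difference of 20.4 points (18.9 to 21.8). Thus where ERI2 had 1 main cluster, ERI3 was spread over several. Cluster 3 held 7.31% of ERI3 and 0.636% of ERI2, cluster 12 held 5.01% of ERI3 and 0.318% of ERI2, and cluster 6 held 4.65% of ERI3 and 0.955% of ERI2. Clusters 2, 3, 8 and 12 together held 88.1% (86.9 to 89.2) of ERI3 cells and 4.22% (3.17 to 5.48) of ERI2 cells. When the smaller of both shares was summed over all clusters, the overlap of the conditions was 10.8%.

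**Figure D1:**
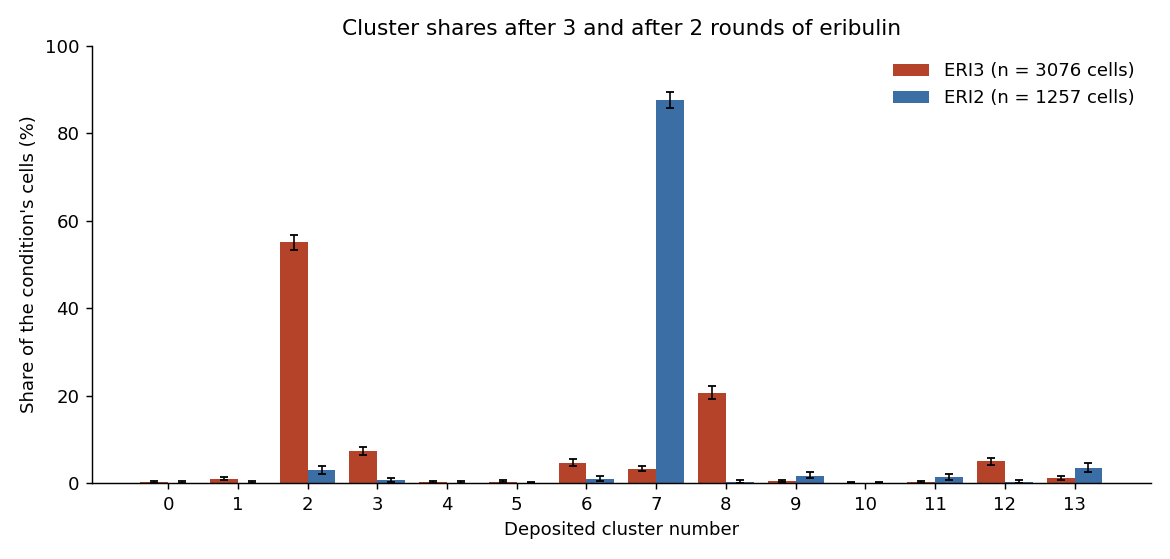
Share of ERI3 and ERI2 cells (%, vertical axis) in each of the authors' clusters (horizontal axis), ERI3 left and ERI2 right, with exact 95% intervals that cover counting error only. ERI2 stands almost wholly in cluster 7 (87.7%), while ERI3 stands mainly in clusters 2 (55.1%) and 8 (20.7%).

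The remaining clusters with at least 1% of either condition were small. Cluster 13, whose cells had few genes and a high mitochondrial share, held 1.17% of ERI3 and 3.50% of ERI2. Its median mitochondrial share was 68.2% in 36 ERI3 cells and 77.9% in 44 ERI2 cells, with medians of 238 genes in ERI3 and 235 genes in ERI2. Clusters 9 and 11 also held smaller shares of ERI3, with 0.423% of ERI3 against 1.75% of ERI2 in cluster 9, and 0.293% of ERI3 against 1.35% of ERI2 in cluster 11. Cluster 1 held 1.04% of ERI3 and 0.159% of ERI2, where it was 2 cells.

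ERI3 cells lay further along pseudotime than ERI2 cells and were more spread along it. The median was 22.5 in ERI3, with quartiles of 16.6 and 23.5 and a range of 0.214 to 31.4. In ERI2 it was 13.7, with quartiles of 13.4 and 14.7 and a range of 8.72 to 30.2. The difference of medians was 8.74, and the ERI3 cell was the higher one in 90.1% of all pairs of an ERI3 and an ERI2 cell. The ranges overlapped widely, but the ranges between the quartiles did not. Of ERI3 cells, 72.1% lay above 18.3, the 90th percentile of ERI2, against 10.0% of ERI2 cells. ERI3 had several separate peaks rather than 1: 16.8% of ERI3 cells and 2.23% of ERI2 cells lay between 15 and 16, and 27.0% of ERI3 cells and 2.31% of ERI2 cells between 23 and 24. In ERI2 the fullest interval was 13 to 14, with 1.95% of ERI3 cells and 48.5% of ERI2 cells. Many cells had exactly the same pseudotime as another cell of their condition (57.3% in ERI3 and 52.9% in ERI2, compared after rounding to 6 decimals), and the intervals of the medians do not allow for that.

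**Figure D2:**
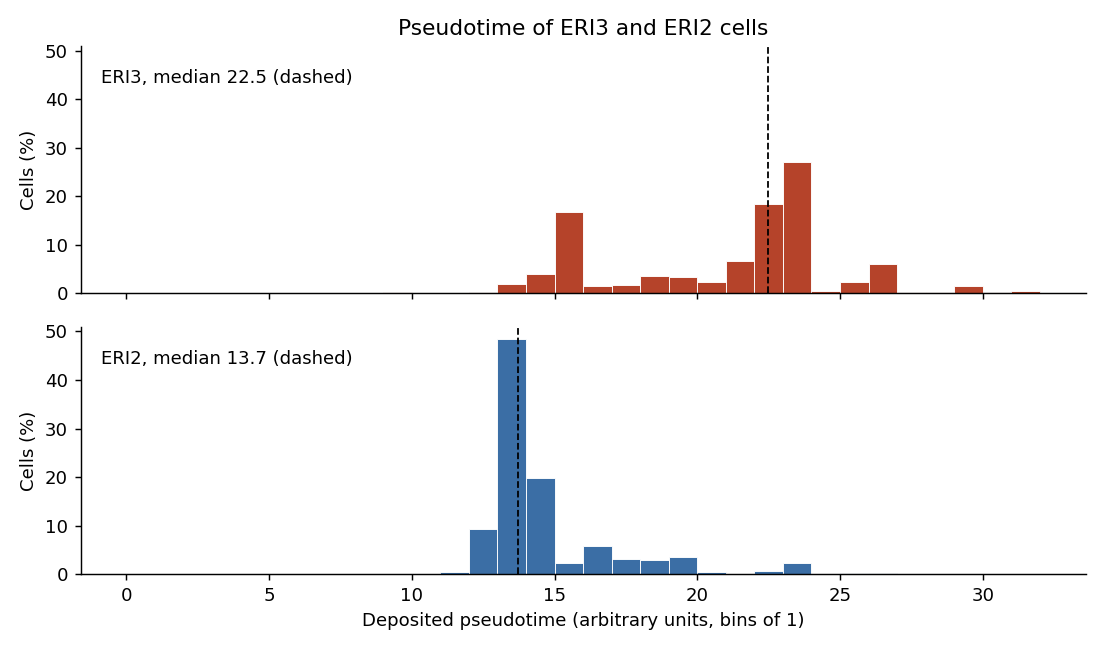
Percent of cells (vertical axis) in bins of 1 pseudotime unit (arbitrary scale, horizontal axis), ERI3 above and ERI2 below, with each median as a dashed line. ERI2 has 1 main peak around its median of 13.7, and ERI3 has its highest bins at 15 to 16 and at 22 to 24.

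Within ERI3 the clusters lay in a set order along pseudotime, with medians of 15.6 in cluster 8, 18.7 in cluster 6, 22.7 in cluster 2, 25.0 in cluster 3 and 26.9 in cluster 12. Cluster 8, the second largest of ERI3, thus had a median pseudotime near that of cluster 7, which was 14.5 in ERI3 and 13.7 in ERI2. Whether these clusters were close in expression was not tested. Clusters 2, 7 and 13 held at least 20 cells of each condition. In cluster 2 the median pseudotime was 22.7 in 1694 ERI3 cells and 18.0 in 37 ERI2 cells, a difference of 4.70 (0.208 to 6.84). In cluster 7 the ERI3 median was higher by 0.776 (0 to 0.975), and in cluster 13 both medians were 19.6.

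The mitochondrial share was lower in ERI3 than in ERI2. Its median was 2.98% of UMIs in ERI3 cells and 3.81% in ERI2 cells, a difference of -0.837 points (-0.922 to -0.698). In 31.3% of pairs the ERI3 cell had the higher share. The ERI1 median was 3.05%, close to that of ERI3, and the ERI2 median was above it by 0.766 points. Within cluster 2 the median was 3.01% in ERI3 and 3.40% in ERI2, a difference of -0.396 points (-0.788 to -0.0167), and within cluster 7 it was 3.61% in ERI3 and 3.85% in ERI2, a difference of -0.235 points (-0.549 to 0.0195). The difference was thus smaller inside clusters 2 and 7 than over all cells. Inside cluster 13, which also held at least 20 cells of each condition, it was larger, at -9.64 points (-40.5 to -1.99).

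Over all cells, fewer ERI3 cells were called S phase, in which DNA is copied, and more were called G1. At a common depth the G1 difference was nearly absent, as given below. The phase was read from the authors' scores: a cell with neither score above 0 was taken as G1, and any other cell as the phase whose score was larger. S cells were 19.6% (18.2 to 21.1) of the ERI3 cells and 23.9% (21.6 to 26.4) of the ERI2 cells, a difference of -4.34 points (-7.13 to -1.65). G1 made up 40.0% of ERI3 and 34.2% of ERI2, a difference of 5.81 points (2.64 to 8.92). G2M, the phase before and during division in which eribulin holds cells, made up 40.4% of ERI3 and 41.8% of ERI2. Its difference of -1.47 points (-4.71 to 1.74) had an interval that includes 0, and it was 4.55 points (0.134 to 8.85) among cells of a common depth, between 8179 and 19691 UMIs (2181 ERI3 and 614 ERI2 cells). It was -3.19 points (-6.31 to -0.120) with a score threshold of 0.1 and -3.90 points (-7.78 to -0.0529) among cells with one called barcode, a setting chosen after seeing the data. Of these settings, only the common depth turned the sign. At that depth the S difference was -4.57 points (-8.61 to -0.743). The S and G2M differences thus nearly cancelled there, which left almost no difference in G1. The median S score was -0.141 in ERI3 and -0.106 in ERI2, and the median G2M score was -0.0631 in ERI3 and -0.0362 in ERI2. The part of depth and of free RNA in these calls was not tested, and no rate of division is read from them.

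Phase also differed among the clusters of ERI3. Cells called G1 made up 45.3% (41.4 to 49.2) of cluster 8 and 46.7% (40.0 to 53.4) of cluster 3 in ERI3, against 37.5% (35.2 to 39.9) of cluster 2 and 32.5% (25.2 to 40.5) of cluster 12. G2M calls made up 34.4% of cluster 8, 36.9% of cluster 3, 42.0% of cluster 2 and 49.4% of cluster 12. In ERI2, cluster 7 had 32.8% of its cells called G1 and 42.5% called G2M.

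By the authors' latest call, barcodes were called about as often in both conditions, but they were detected less in ERI3. A single barcode was called in 2215 ERI3 cells, or 72.0% (70.4 to 73.6), and in 882 ERI2 cells, or 70.2% (67.6 to 72.7). These are the barcoded cells below. By the authors' first revision of the call, the shares were 69.1% of ERI3 and 59.7% of ERI2, a difference of 9.45 points (6.30 to 12.6). The median number of barcode counts per cell was 3 in ERI3 and 10 in ERI2. Cells with no detected barcode made up 23.7% of ERI3 and 12.6% of ERI2, and 11.3% (10.2 to 12.5) of ERI3 cells and 33.6% (31.0 to 36.3) of ERI2 cells had 2 or more. That difference was -22.2 points (-25.1 to -19.4), and -14.8 points when cells that the authors called Doublet or Multiplet were left out. The Doublet call itself covered 2.21% of ERI3 cells and 11.5% of ERI2 cells. Several barcodes in 1 cell may come from several infections or from several cells in 1 droplet, and these cannot be told apart. Droplets with several hashtags have no class of their own in the table, and no doublet caller was run.

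Most cells without a call in ERI3 lay in cluster 2, which held 643 of its 782 cells called Negative. In cluster 2, 38.0% (35.6 to 40.3) of ERI3 cells and 48.6% (31.9 to 65.6) of 37 ERI2 cells were called Negative. How the authors defined this class is not given. Over all clusters, it held 782 ERI3 and 214 ERI2 cells, more than the 729 ERI3 and 158 ERI2 cells with no detected barcode. In cluster 8, 1.73% of 636 ERI3 cells were Negative, and in cluster 3, 2.22% of 225. The median number of barcode counts per ERI3 cell was 1 in cluster 2, 11 in cluster 8 and 14 in cluster 3. Shares of barcoded cells therefore count cluster 2 at less than its full size, which touches every barcode share below.

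ERI3 cells came from fewer lineages than ERI2 cells when equal numbers were compared. ERI3 had 63 called barcodes and ERI2 had 65, although ERI3 had more cells. A draw of 882 barcoded ERI3 cells would hold 41.3 barcodes on average (SD of the draw 3.17), against the 65 barcodes of the 882 barcoded ERI2 cells. The 3 most frequent barcodes made up 76.7% of barcoded ERI3 cells and 50.6% of barcoded ERI2 cells. Of pairs of barcoded cells, 23.2% carried the same barcode in ERI3 and 11.9% in ERI2. In all, 36 barcodes were seen in both conditions, 57.1% of those of ERI3 and 55.4% of those of ERI2, and they covered 98.0% of barcoded ERI3 cells and 93.2% of barcoded ERI2 cells. The 27 barcodes of ERI3 alone had at most 7 cells each, and the 29 of ERI2 alone at most 14. Summed over barcodes, the smaller of both shares gave an overlap of 46.4%, well above the 10.8% overlap of the cluster shares.

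With 1 library there is no test for single barcodes, so a barcode is called changed where it had at least 20 cells over both conditions and its share differed at least 2-fold. Of 14 barcodes with enough cells, 3 (21.4%) were higher in ERI3 and 7 (50%) were lower. The 3 higher ones together made up 44.2% of barcoded ERI3 cells and 4.20% of barcoded ERI2 cells. The 7 lower ones together made up 3.07% of barcoded ERI3 cells and 42.3% of barcoded ERI2 cells.

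Barcode bc14-6-bc30-93034 had 554 ERI3 cells and 13 ERI2 cells. That is 25.0% (23.2 to 26.9) of barcoded ERI3 cells and 1.47% (0.787 to 2.51) of barcoded ERI2 cells, a ratio of 17.0 (9.84 to 32.1). It was not rare after the first round: it made up 7.67% of barcoded ERI1 cells, 1.47% of ERI2 cells and 25.0% of ERI3 cells, so it was lowest after the second round. Barcode bc14-55-bc30-23349 had 305 ERI3 cells (13.8%) and 7 ERI2 cells (0.794%), a ratio of 17.3 (8.32 to 43.5), and 0.369% in ERI1. Barcode bc14-95-bc30-33662 had 120 ERI3 cells (5.42%) and 17 ERI2 cells (1.93%), a ratio of 2.81 (1.68 to 4.98). These ratios rest on few ERI2 cells, as their intervals show.

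Among the lower barcodes, bc14-22-bc30-18173 ranked 2 in ERI2 and 10 in ERI3. It had 16 ERI3 cells, or 0.722% (0.413 to 1.17), and 124 ERI2 cells, or 14.1% (11.8 to 16.5). Barcode bc14-55-bc30-37135 had 18 ERI3 cells (0.813%) and 80 ERI2 cells (9.07%), and bc14-74-bc30-34057 had 4 ERI3 cells (0.181%) and 60 ERI2 cells (6.80%). The last is a ratio of 0.0265 (0.00701 to 0.0716), the smallest of the 12 named barcodes. The remaining named ones were bc14-55-bc30-99383, with 0.767% of ERI3 and 3.51% of ERI2, and bc14-1-bc30-96229, with 0.361% of ERI3 and 3.40% of ERI2. Each of these 5 named barcodes still had cells in ERI3. Of the 80 ERI2 cells of bc14-55-bc30-37135, 72 had 2 or more detected barcodes, so its count depends on how such cells were called.

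The most frequent barcode of both conditions, bc14-76-bc30-49517, changed less than 2-fold. It had 839 ERI3 cells, or 37.9% (35.9 to 39.9), and 242 ERI2 cells, or 27.4% (24.5 to 30.5), a ratio of 1.38 (1.20 to 1.60). Its share was 4.20% in ERI1, so its larger step came before the rounds compared here. The other barcodes between the limits were bc14-39-bc30-41529, with 4.70% of ERI3 and 6.46% of ERI2, bc14-89-bc30-6288, with 3.61% of ERI3 and 4.08% of ERI2, and bc14-55-bc30-98358, with 1.17% of ERI3 and 2.15% of ERI2. The ratios of these 3 had intervals that include 1, but the difference in share had an interval below 0 for bc14-39-bc30-41529, at -1.77 points (-3.76 to -0.0345), and for bc14-55-bc30-98358, at -0.980 points (-2.22 to -0.0389). The smallest ratio inside the limits was thus 0.545 and the next one outside was 0.218.

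**Figure D3:**
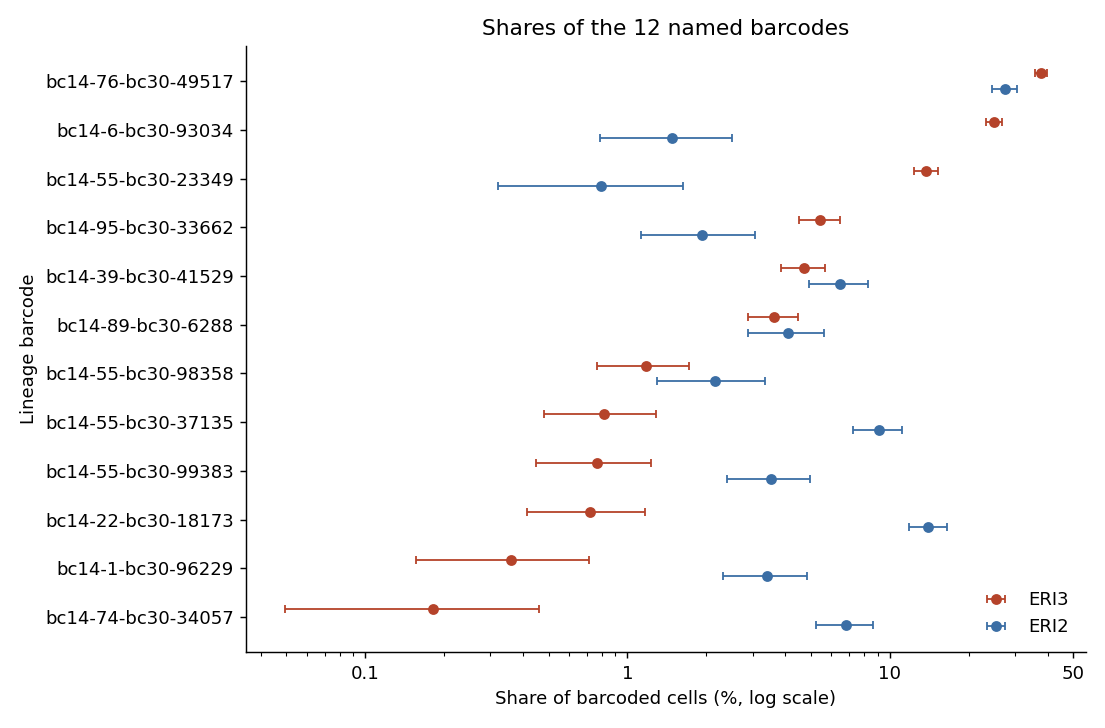
Share of barcoded cells (%, log scale, horizontal axis) of the 12 named barcodes (vertical axis), ERI3 above ERI2 within each barcode, with exact 95% intervals that cover counting error only. Barcodes bc14-6-bc30-93034 and bc14-55-bc30-23349 stand far higher in ERI3, bc14-22-bc30-18173 and bc14-74-bc30-34057 far lower, and bc14-76-bc30-49517 leads both conditions.

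Within each lineage that could be compared, the cluster shares of ERI3 cells differed from those of ERI2 cells. In all, 9 barcodes had at least 10 cells in each condition, and they held 80.1% of barcoded ERI3 cells and 70.2% of barcoded ERI2 cells. In 9 of 9 the share in cluster 7 was lower in ERI3, with differences of -93.5 to -63.1 points and a mean over barcodes of -81.0 points. Cluster 7 still held up to 31.3% of the ERI3 cells of a barcode, in bc14-22-bc30-18173. The overlap of cluster shares between ERI3 and ERI2 cells of the same barcode was between 6.53% and 32.1%, with a median of 11.8%. Cells of 1 barcode share an origin and are not replicates. Cells that changed within a lineage and subclones that replaced others under the same barcode cannot be told apart.

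ERI3 cells of different lineages lay in different clusters. Of the cells of bc14-76-bc30-49517, 93.0% of ERI3 cells lay in cluster 2, while 89.3% of ERI2 cells lay in cluster 7. Barcode bc14-6-bc30-93034 had 89.7% of its ERI3 cells in cluster 8 and 92.3% of its 13 ERI2 cells in cluster 7. Barcode bc14-95-bc30-33662 shared that cluster, with 84.2% of its ERI3 cells in cluster 8 and 70.6% of its 17 ERI2 cells in cluster 7. Barcode bc14-39-bc30-41529 was apart from these, with 87.5% of its ERI3 cells in cluster 12 and 94.7% of its ERI2 cells in cluster 7. Barcode bc14-89-bc30-6288 had 73.8% of its ERI3 cells in cluster 2 and 97.2% of its ERI2 cells in cluster 7. Barcode bc14-55-bc30-98358 was mixed in ERI3, with its largest group, 34.6% of 26 cells, in cluster 1, which held 1.04% of all ERI3 cells. All 19 of its ERI2 cells lay in cluster 7.

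Barcode bc14-55-bc30-23349 departed from this pattern. Cluster 3 held 64.3% (58.6 to 69.6) of its ERI3 cells and already 4 of its 7 ERI2 cells, or 57.1% (18.4 to 90.1). Its median pseudotime was 23.5 in ERI3 and 23.2 (12.9 to 29.8) in ERI2. With 7 ERI2 cells it lay below the limit of 10 and is in none of the counts over barcodes.

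**Figure D4:**
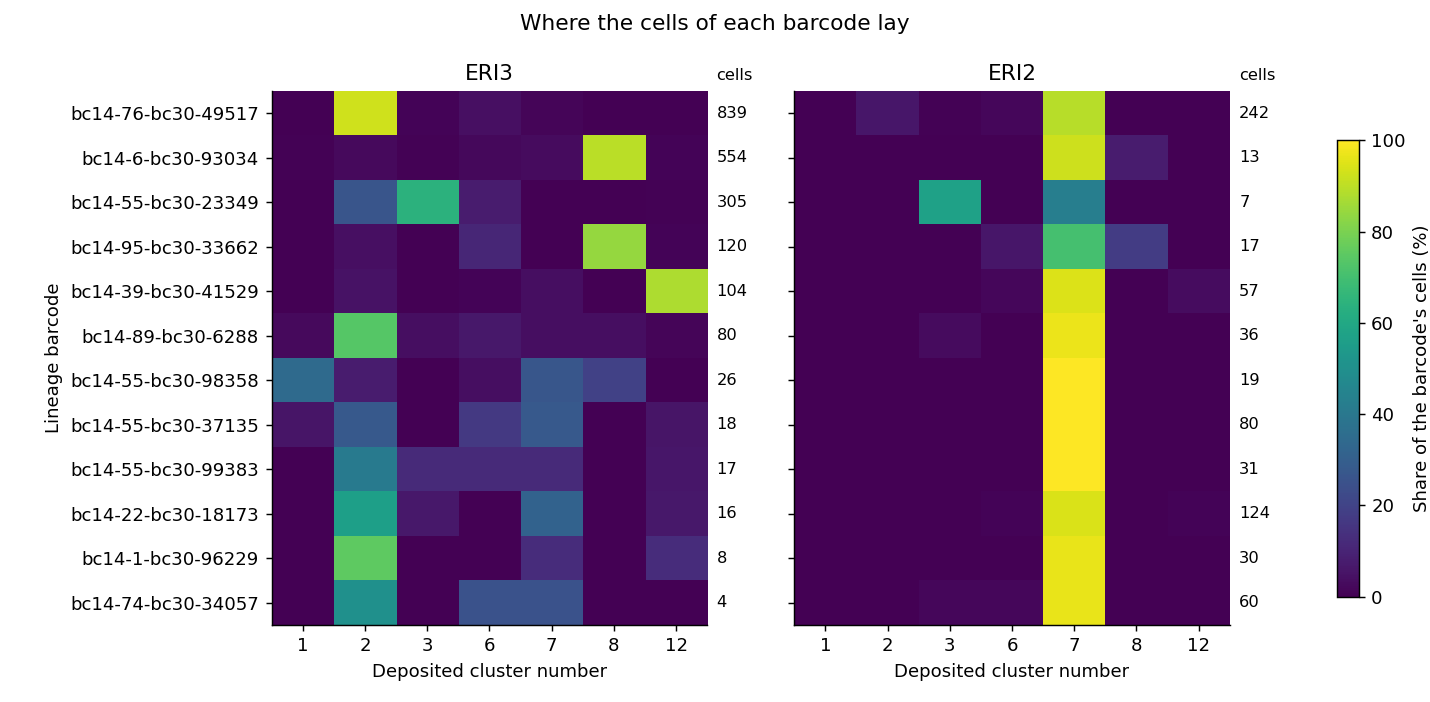
Percent of each barcode's cells (color) in the clusters 1, 2, 3, 6, 7, 8 and 12 (columns), for the 12 named barcodes (rows), ERI3 left and ERI2 right, with the number of cells beside each row; other clusters are not drawn. Every row but bc14-55-bc30-23349 is brightest in cluster 7 in ERI2, while in ERI3 the brightest cells of the rows lie in clusters 2, 3, 8 and 12, except for bc14-55-bc30-98358 (cluster 1) and bc14-55-bc30-37135 (clusters 2 and 7 alike).

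Seen from the clusters, the barcoded cells of each main cluster of ERI3 came largely from 1 lineage. In cluster 2 only 1034 of 1694 ERI3 cells were barcoded, and the lineage of the others is not known. Barcode bc14-76-bc30-49517 made up 75.4% (72.7 to 78.0) of the barcoded ERI3 cells of cluster 2. Barcode bc14-6-bc30-93034 made up 80.7% (77.3 to 83.7) of those of cluster 8, with another 16.4% from bc14-95-bc30-33662. Barcode bc14-55-bc30-23349 made up 90.7% (86.1 to 94.3) of the 216 barcoded ERI3 cells of cluster 3. Barcode bc14-39-bc30-41529 made up 83.5% (75.2 to 89.9) of the 109 barcoded ERI3 cells of cluster 12, which held 154 ERI3 cells in all. Cluster 7 in ERI2 was mixed by contrast, with 55 barcodes among 799 barcoded cells and 27.0% from its leading one, bc14-76-bc30-49517. Cluster 6 in ERI3 was also mixed, and its leading barcode, again bc14-76-bc30-49517, made up 30.8% of 107 barcoded cells.

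A few ERI2 cells already lay in the clusters of ERI3, mostly under the same barcodes. There were 53 such cells in clusters 2, 3, 8 and 12, and 30 of them were barcoded. Of these 30, 25 (83.3%, 65.3 to 94.4) carried a barcode whose leading ERI3 cluster was the one they lay in. The counts were 15 of 16 in cluster 2, 4 of 7 in cluster 3, 4 of 4 in cluster 8 and 2 of 3 in cluster 12. Among the 799 barcoded ERI2 cells of cluster 7, barcodes that lead in ERI3 with cluster 3 made up 0.626%, with cluster 8 3.13%, with cluster 12 6.76% and with cluster 2 80.6%. For cluster 2 the count therefore says little, because most ERI2 cells carried such a barcode wherever they lay. The same limits the pooled 25 of 30, since 15 of these matches were in cluster 2. The 53 cells had a median of 13924 UMIs and 535 hashtag counts, against 18147 UMIs and 573 hashtag counts in the ERI2 cells of cluster 7. Whether any was an ERI3 cell with the wrong hashtag was not tested: the table lists 3 hashtags with counts in every one of the 4333 cells, and the columns used here do not split the hashtag count by hashtag.

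The reverse group, ERI3 cells still in cluster 7, numbered 102. Of these, 52.9% (42.8 to 62.9) had 2 or more detected barcodes, against 8.79% (7.75 to 9.92) of the 2709 ERI3 cells in clusters 2, 3, 8 and 12. Their median was 14643 UMIs, against 11245 in those clusters, and 24.5% of them were called Doublet or Multiplet, against 1.37%. Cells with several barcodes were thus far more frequent among the ERI3 cells that lay in the main ERI2 cluster. Their part in the remaining 3.32% was not tested.

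Pseudotime was higher in ERI3 within 9 of 9 barcodes, by 1.08 to 13.3, and each of the 9 intervals lay above 0. The mean over barcodes was 6.09 (4.81 to 6.69), and it was 9.65 (9.27 to 9.93) over the 3 barcodes with at least 20 cells in each condition. The largest difference was that of bc14-39-bc30-41529, with a median of 26.9 in 104 ERI3 cells and 13.6 in 57 ERI2 cells. The leading barcode bc14-76-bc30-49517 had medians of 22.6 in ERI3 and 14.9 in ERI2, a difference of 7.71 (6.77 to 7.96). The 2 barcodes led by cluster 8 in ERI3 differed little along pseudotime. Barcode bc14-6-bc30-93034 had 15.6 in ERI3 and 14.3 in ERI2, a difference of 1.30 (0.879 to 1.85), and bc14-95-bc30-33662 had 15.6 in ERI3 and 13.9 in ERI2, a difference of 1.66 (1.49 to 2.31). Lineages that shared cluster 7 and a median between 13.1 and 14.9 in ERI2 were spread from 14.7 to 26.9 in ERI3.

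**Figure D5:**
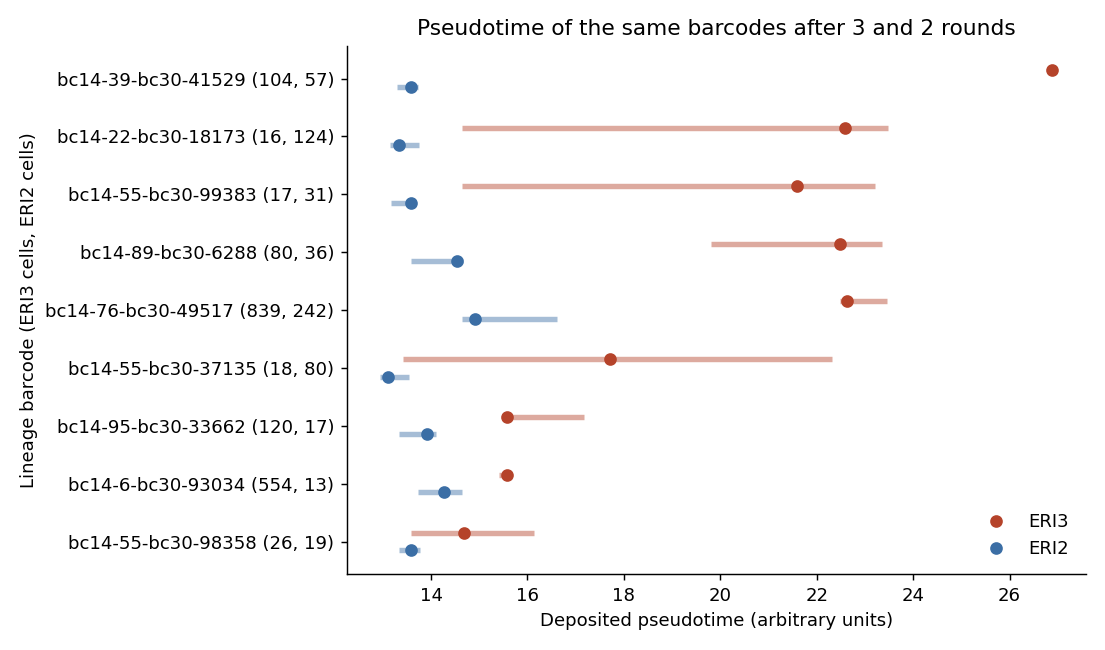
Median pseudotime (points, arbitrary scale, horizontal axis) and its quartiles (bars) for the 9 barcodes with at least 10 cells in each condition, ERI3 above ERI2, with the numbers of ERI3 and ERI2 cells beside each name. ERI2 medians lie between 13.1 and 14.9, and ERI3 medians between 14.7 and 26.9.

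Lineages with lower shares in ERI3 also had lower shares of cells in cluster 7. In bc14-22-bc30-18173, cluster 7 held 31.3% of the 16 ERI3 cells and 94.4% of the 124 ERI2 cells, and the median pseudotime was 22.6 in ERI3 and 13.3 in ERI2. In bc14-55-bc30-37135, cluster 7 held 27.8% of the 18 ERI3 cells and 100% of the 80 ERI2 cells, with medians of 17.7 in ERI3 and 13.1 in ERI2. Of these ERI3 cells, 62.5% of the first barcode and 61.1% of the second had 2 or more detected barcodes, and the part of such cells in these values was not tested.

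A split of the mean difference over all 36 shared barcodes gave the weight of changes inside lineages and of changes in lineage shares. Mean pseudotime over these barcodes was 20.6 in ERI3 and 14.5 in ERI2, a difference of 6.04. Of this, 5.47 (5.20 to 5.75), or 90.5%, lay within barcodes, and 0.571 came from barcode shares, with the mean of both conditions' shares as weights. With ERI2 shares as weights the part within barcodes was 6.24 (5.87 to 6.61), more than the whole difference. The size and sign of the part from barcode shares thus depend on the weights. Some barcodes frequent in ERI3 had few ERI2 cells, such as 13 for bc14-6-bc30-93034 and 7 for bc14-55-bc30-23349. For the share in cluster 7, 88.7% of the difference of -89.8 points lay within barcodes. Cluster 8 stood apart: of its difference of 27.8 points, 14.4 lay within barcodes (51.8%) and 13.4 came from barcode shares. The barcode that fills most of cluster 8, bc14-6-bc30-93034, was also among those with the largest ratios of shares. For cluster 2 the part within barcodes, 50.9 points, was larger than the whole difference of 44.5 points, because the change of barcode shares counted against it. The split is arithmetic and does not separate cells that changed from subclones of the same barcode.

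Depth and mitochondrial share differed within lineages too. Median UMIs were lower in ERI3 in 8 of 9 barcodes, with ratios of 0.611 to 1.18 and a median ratio of 0.634. The exception was bc14-22-bc30-18173, with 18663 UMIs in ERI3 and 15879 in ERI2, most of whose ERI3 cells had several barcodes as given above. The mitochondrial median was lower in ERI3 in 8 of 9, with 5 of 9 intervals off 0. In bc14-76-bc30-49517 it was 3.05% in ERI3 and 4.14% in ERI2, and in bc14-6-bc30-93034 it was 2.95% in ERI3 and 4.54% in ERI2. The exception was bc14-55-bc30-99383, with 4.18% in 17 ERI3 cells and 3.42% in 31 ERI2 cells.

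The G1 share was higher in ERI3 in 9 of 9 barcodes, but the interval lay off 0 in 1 of them only. That was bc14-95-bc30-33662, with 49.2% of its 120 ERI3 cells and 5.88%, or 1, of its 17 ERI2 cells called G1, a difference of 43.3 points (20.4 to 53.4). In the best-filled lineage, bc14-76-bc30-49517, G1 made up 37.2% of ERI3 and 31.0% of ERI2, a difference of 6.20 points (-0.683 to 12.6). S made up 16.9% of ERI3 and 21.5% of ERI2 in this barcode, a difference of -4.56 points (-10.6 to 0.858). At these cell numbers a difference in phase was not detectable inside most single lineages. Phase shares within barcodes were not compared at a common depth, where the G1 difference over all cells was nearly absent.

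The step from the second to the third round can be set beside the step before it and the same step under paclitaxel. From the first to the second round, the mean difference in median pseudotime was 0.162 over 9 barcodes with at least 10 cells on both sides, and the median overlap of cluster shares within a barcode was 97.6%. This comparison shares the ERI2 cells with the one above. From the second to the third round of paclitaxel, which stabilises microtubules and was given in a separate library at 250 nM after a first round at 100 nM (with no final recovery given for the cells of 2 rounds), the mean difference was -0.816 (from -2.14 to 4.38 over 8 barcodes) and the median overlap was 87.1%. For the third round of eribulin the same values were 6.09 and 11.8%. Over all cells, the differences in pseudotime, in clusters 7 and 2 and in barcode detection had the same sign under both drugs. The median pseudotime differed by 8.74 between ERI3 and ERI2 and by 1.99 between 3 and 2 rounds of paclitaxel. Cluster 7 differed by -84.4 points under eribulin and -38.5 points under paclitaxel, and cluster 2 by 52.1 points under eribulin and 38.5 points under paclitaxel. Cells with 2 or more detected barcodes differed by -22.2 points under eribulin and by -12.8 points under paclitaxel. Barcode bc14-76-bc30-49517 had most of its cells in cluster 2 after 3 rounds of either drug and in cluster 7 after 2. Cluster 2 held 93.0% of its ERI3 cells and 6.20% of its ERI2 cells, and 92.5% of its cells after 3 rounds of paclitaxel and 34.4% after 2. The second-round levels were unlike. Median pseudotime was 13.7 in ERI2 (quartiles 13.4 and 14.7) and 19.6 after 2 rounds of paclitaxel (quartiles 13.9 and 23.9). The sizes of the steps under the drugs are therefore not compared from a like start, and the difference between the drugs was not tested.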

How the data were processed

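The members, the named barcodes and the comparisons were chosen with earlier results of these data known. Per the labels, 3′ v3 libraries (10x Genomics) were made in run 2 from hashtagged cells. Cell Ranger 4.0.0 with an mm10 reference was used for run 2, Seurat 3.1.4 for the filter and the clusters, and Monocle3 0.2.1 for pseudotime over all samples, per the submitters' processing notes and the series' design text. How barcodes and hashtags were called is not given in the sources used here.

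The deposited counts are UMIs, genes, hashtag counts and barcode counts per cell, without normalization. The deposited percent is the share of a cell's UMIs in mitochondrial genes. The deposited score columns are S and G2M phase scores and pseudotime, on arbitrary scales. Clusters and barcode calls (the latest of the authors' calls) were taken as deposited. No gene matrix, UMAP position or chromatin data were used.

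From these, shares were computed with Clopper-Pearson intervals, their differences with Newcombe intervals, and medians with order-statistic intervals, all at 95%, with python 3.11.15, numpy 2.4.6, pandas 2.3.3 and scipy 1.17.1; the functions were checked on simulated data. The expected number of barcodes in equal draws was calculated exactly, without random draws. Differences of means were split into parts within and between barcodes by Kitagawa's method. Clusters are named where they hold at least 1% of either condition. Barcodes are named if they were among the 8 most frequent of either condition or had at least 10 cells in each. Median depth was 11267 UMIs in ERI3 and 17285 in ERI2. Cells are not replicates, so no test was made. Alternatives were the authors' stated filter, a common UMI window, leaving out classes of cells, and other barcode calls, minima and weights.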

Additional observations from a re-analysis of the deposited data

Results flagged for a closer look

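Of 14 differences set beside the same step under paclitaxel, 2 had the opposite sign. The share of cells called G2M differed by -1.47 points (-4.71 to 1.74) between ERI3 and ERI2, and by 2.45 points between 3 and 2 rounds of paclitaxel. The mean difference in median pseudotime within barcodes was 6.09 for ERI3 minus ERI2, higher in 9 of 9 barcodes, and -0.816 for the paclitaxel rounds, higher in 2 of 8 (from -2.14 to 4.38). Over all cells the median pseudotime differences had the same sign, 8.74 for ERI3 minus ERI2 and 1.99 for the paclitaxel rounds. The second-round medians were unlike, at 13.7 in ERI2 and 19.6 after 2 rounds of paclitaxel, which limits any comparison of sizes. The differences between the drugs were not tested, and each condition is 1 culture.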

How the results depend on the processing

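Of 89 alternative values for 14 results, 57 stayed within the counting interval of the main value and 32 did not; 1 changed sign, the G2M share, at 4.55 points in the common UMI window against -1.47; with a phase threshold of 0.1 it was -3.19 and with one called barcode -3.90, both with intervals below 0. In the common UMI window the difference was -88.0 points for cluster 7, 54.7 for cluster 2, 8.76 for median pseudotime and -18.0 points for 2 or more barcodes; the cluster overlap was 9.15%, the barcode difference in equal draws -16.5 (against -23.7), the cluster 7 difference within barcodes -85.5 points and the within-barcode pseudotime part 5.86. Inside the stated filter the cluster 7 difference was -86.8 points, and without cluster 13 -87.6 points. Among G1 cells the differences were -81.3 points for cluster 7, 47.9 for cluster 2, 23.4 for cluster 8 and -0.967 for mitochondrial percent. Without Doublet and Multiplet calls the difference for 2 or more barcodes was -14.8 points. Chosen after seeing the data, cells with exactly 1 detected barcode gave -88.0 points for cluster 7, 45.6 for cluster 2, 28.5 for cluster 8, an overlap of 7.72%, 8.57 for pseudotime and a UMI ratio of 0.685; cells with one called barcode gave -87.6, 44.9 and 27.4 points and 8.64%. Within barcodes, the cluster 7 difference was -88.0 points over the 6 barcodes left with exactly 1 detected barcode and -90.8 over the 3 with at least 20 cells on both sides; the pseudotime difference was 9.65 with at least 20 cells and 7.65 weighted by ERI2 cells; and the within-barcode part was 4.76 without bc14-76-bc30-49517 and 6.24 with ERI2 weights. The causes were not tested. No paired analysis was possible because each condition is 1 culture. Cell numbers limit the phase differences in single lineages.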

Other observations

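One lineage outside the naming rule was chosen after its values were seen. Barcode bc14-33-bc30-33994 was the most frequent of the barcodes seen in ERI2 and not in ERI3. None of the 2215 barcoded ERI3 cells carried it (the exact interval reaches 0.166%), against 14 of 882 barcoded ERI2 cells, or 1.59% (0.870 to 2.65). All 14 lay in cluster 9, which held 22 ERI2 cells in all, and 12 of them had exactly 1 detected barcode. It had 0 of 1356 barcoded cells in ERI1. In the paclitaxel library it had 33 cells after 1 round, 21 after 2 and 54 after 3, of which 32, 19 and 52 lay in cluster 9. The 14 ERI2 cells had between 475 and 1122 hashtag counts. How cells of this lineage came to carry the ERI2 hashtag was not tested.

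All barcode calls of the eribulin library of run 2 were in the authors' list for that run, while 1593 of 4647 calls in the paclitaxel library named 82 barcodes that are not in it.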
